A study of Mus musculus with 12 samples.

Results

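The genes described here encode transcription factors that control fat synthesis and sugar use in liver, the partners they bind DNA with, and 2 glucose-responsive target genes. They are Srebf1 (SREBP1), Mlxipl (ChREBP), Mlx, Mlxip (MONDOA), Nr1h3 (LXR alpha), Nr1h2 (LXR beta), Usf1, Usf2, Txnip and Arrdc4. They were chosen by name for these roles, and these 10 genes were among the 16346 genes of the expression table. All 10 had a mean normalized count of at least 10 over the libraries, as did 12366 genes in all, which were tested together.

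Liver RNA was sequenced from 12 mice of strain C57BL6J at 12 weeks of age, 2 in each of 6 groups. The control mice carried Med13fl/fl, the floxed gene for a subunit of the Mediator kinase module, and the MED13-LKO mice were made by deleting this gene with Cre recombinase driven by the albumin promoter, which acts in hepatocytes. Mice of each genotype were fasted overnight for 16 h, or refed for 4 h on normal chow with drinking water that held 30% sucrose or 30% fructose. No group refed with plain water was analysed here, so the sugar cannot be told apart from the chow, and fed mice were killed later in the day than fasted mice.

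SREBP1 is made as a membrane-bound precursor and is released to the nucleus when insulin is high, where it turns on the enzymes of fatty acid synthesis, and LXR, a receptor for oxysterols, raises transcription of its gene. ChREBP binds DNA together with MLX at carbohydrate response elements when sugar phosphates build up in the cell. MONDOA is the relative of ChREBP that shares MLX as its partner, USF1 and USF2 bind the same E-box core, and Txnip and Arrdc4 encode alpha-arrestins that limit glucose uptake and are classical targets of the MLX-containing dimers.

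The labels were checked first with the targeted gene. The Med13 RNA was 674 and 796 normalized counts in the fasted control mice, 578 and 673 with sucrose and 607 and 778 with fructose. It was 808 and 899, then 646 and 717, then 681 and 1055 in the corresponding mice labelled MED13-LKO. The transcript was not lower in that genotype. The paper reported almost no MED13 protein in MED13-LKO liver on Western blots. These values do not separate the deleted part of the gene from the rest. The reason for the RNA levels was not tested, so the text refers to libraries labelled MED13-LKO. The normalized counts summed to 21060000 to 24150000 in control libraries and 17310000 to 18740000 in libraries labelled MED13-LKO. Alb and the 5 other hepatocyte markers were high in every library, with a summed level of 2377600 to 3118860 in control and 1793390 to 2190180 in libraries labelled MED13-LKO, and these ranges did not overlap. The summed level of 6 Kupffer cell markers was 2972 to 4147 against 4031 to 5360, and that of 5 endothelial markers 3036 to 3528 against 3471 to 4743, while 5 stellate markers gave 6211 to 7296 against 5853 to 6746. Cholangiocyte (666 to 876 against 534 to 849), red cell (6608 to 10752 against 4363 to 8058), lymphocyte (7.23 to 24.1 against 19.4 to 32.2), adipocyte (55.9 to 142 against 76.3 to 149) and pancreas acinar markers (0 to 7.63 against 5.49 to 11.7) were lower than the hepatocyte markers in every library. Epcam was missing from the cholangiocyte sum and Plin1 from the adipocyte sum. Cpa1, Prss2 and Ctrb1 were missing from the acinar sum, which is Cela2a alone. Adipoq was at 0 in 7 libraries, Nkg7 in 3, and Cd79a and Cela2a in 1 each. In whole liver, fewer cells of a type and less RNA per cell cannot be told apart.

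The stretches in front of the transcription starts are shown because the 4 genes they belong to, Srebf1, Mlxipl, Txnip and Arrdc4, are the leading factors and the glucose-responsive targets. Each holds the 250 bases before a start in the RefSeq annotation of GRCm38.p6, written in the direction of transcription, with the matched letters in capitals. The Srebf1 window, chr11:60210472-60210721 on the minus strand, precedes the start of the SREBP1c transcript. The capitals mark a direct repeat of the LXR type at -182 to -167. The Mlxipl windows, both on the plus strand, precede the starts of the beta transcript (chr5:135089640-135089889, E-box at -98 to -93) and of the alpha transcripts (chr5:135106641-135106890, sterol regulatory element at -136 to -128). The Txnip window, chr3:96557707-96557956 on the plus strand, has a carbohydrate response element match at -85 to -69. The Arrdc4 window, chr7:68749239-68749488 on the minus strand, has an E-box at -193 to -188.
Srebf1, SREBP1c start: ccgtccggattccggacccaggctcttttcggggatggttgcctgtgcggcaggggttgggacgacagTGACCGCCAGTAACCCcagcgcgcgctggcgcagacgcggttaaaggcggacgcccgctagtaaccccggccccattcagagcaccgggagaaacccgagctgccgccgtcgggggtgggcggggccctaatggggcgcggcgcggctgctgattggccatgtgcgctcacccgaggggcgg
Mlxipl, beta start: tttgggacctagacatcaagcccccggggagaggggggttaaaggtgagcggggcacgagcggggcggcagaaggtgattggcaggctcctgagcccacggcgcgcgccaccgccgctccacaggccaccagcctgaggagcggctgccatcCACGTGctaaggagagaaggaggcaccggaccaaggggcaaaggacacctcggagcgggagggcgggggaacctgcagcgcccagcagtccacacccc
Mlxipl, alpha start: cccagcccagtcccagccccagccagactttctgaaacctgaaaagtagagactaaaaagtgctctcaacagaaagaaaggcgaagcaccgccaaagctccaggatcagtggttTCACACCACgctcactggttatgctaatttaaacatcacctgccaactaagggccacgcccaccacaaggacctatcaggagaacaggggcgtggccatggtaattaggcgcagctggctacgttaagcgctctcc
Txnip: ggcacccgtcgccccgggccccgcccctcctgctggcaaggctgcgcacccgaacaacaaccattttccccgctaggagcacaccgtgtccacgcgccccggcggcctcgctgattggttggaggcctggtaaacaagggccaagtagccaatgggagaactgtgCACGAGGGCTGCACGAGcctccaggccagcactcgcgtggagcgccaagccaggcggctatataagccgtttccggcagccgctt
Arrdc4: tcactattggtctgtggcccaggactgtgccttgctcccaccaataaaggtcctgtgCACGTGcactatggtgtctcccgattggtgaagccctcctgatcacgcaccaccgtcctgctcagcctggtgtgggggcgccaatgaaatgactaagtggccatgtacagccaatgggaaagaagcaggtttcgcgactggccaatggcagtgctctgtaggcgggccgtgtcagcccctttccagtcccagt

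Windows were found for 9 of the 10 genes, 14 windows in all, and were searched on both strands. The E-box, CACGTG with no mismatch, was present in 3 of the 14 windows and in 6.021% of the 32851 windows of all genes. The third of these windows was that of Mlx (chr11:101087040-101087289, plus strand, -40 to -35). The carbohydrate response element was written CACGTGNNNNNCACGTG with at most 2 mismatches, so that it can overlap an E-box. Its match in 1 window, that of Txnip, compares with 0.7793% of all windows. The LXR direct repeat, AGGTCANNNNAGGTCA with at most 3 mismatches, matched 2 windows of these genes, including a second start of Usf1, and 18.51% of all windows. The sterol regulatory element, TCACNCCAC, matched 1 window and 1.053% of all windows. These are letter matches only, and binding was not measured in these libraries.

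The table gives 1 value per gene, a sum over its transcripts. The study's quantitative PCR primers for Chrebp beta matched 1 of the 10 annotated Mlxipl transcripts, and those for Chrebp alpha matched 7 of them, whose starts lie at chr5:135106891-135106918. The primers for Srebf1c matched 1 of the 12 Srebf1 transcripts. The forward primers are printed because they show which start each assay reads, and the values below do not separate these starts.
Chrebp beta forward primer: tctgcagatcgcgtggag
Chrebp alpha forward primer: atccgacactcacccacctctt
Srebf1c forward primer: ggagccatggattgcacatt

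To compare the genes with each other, normalized counts were divided by the length of the longest coding transcript. Srebf1 and Mlxipl gave the highest levels per kb in the fed groups. In fasted control mice Mlxipl was at 1014 ± 145 normalized counts per kb (SD, n = 2) and Srebf1 at 991 ± 299.9, a difference within their spread. With sucrose, the control mice had 3711 ± 1081 for Srebf1 and 1586 ± 86.6 for Mlxipl. Next in 5 of the 6 groups came Txnip and Nr1h3, whose ranges overlapped (433 to 1280 and 688 to 956 per kb over the 12 libraries), so their order was not resolved. Fasted mice labelled MED13-LKO were the exception, with Txnip at 1052 ± 323, Mlxipl at 1003 ± 65.4, Nr1h3 at 786 ± 3.43 and Srebf1 at 599 ± 196 per kb, where Txnip and Mlxipl overlapped and Srebf1 lay below Nr1h3 in both mice. Usf2 followed at 442 to 601, Mlx at 300.5 to 469.6, Nr1h2 at 240.02 to 310.01 and Usf1 at 111 to 178, with overlaps of Usf2 with Mlx, of Mlx with Nr1h2, and of both Txnip and Srebf1 with Usf2 and Mlx. Over all libraries the ranges of Srebf1 and Mlxipl also overlapped those of Txnip and Nr1h3. Arrdc4 was at 36.4 to 89.9 and Mlxip at 16.0 to 41.2, which also overlapped. This scale depends on the transcript chosen, since coding transcripts ran from 2653 to 7303 bases for Mlxip and from 542 to 3622 for Mlxipl.

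**Figure D1:**
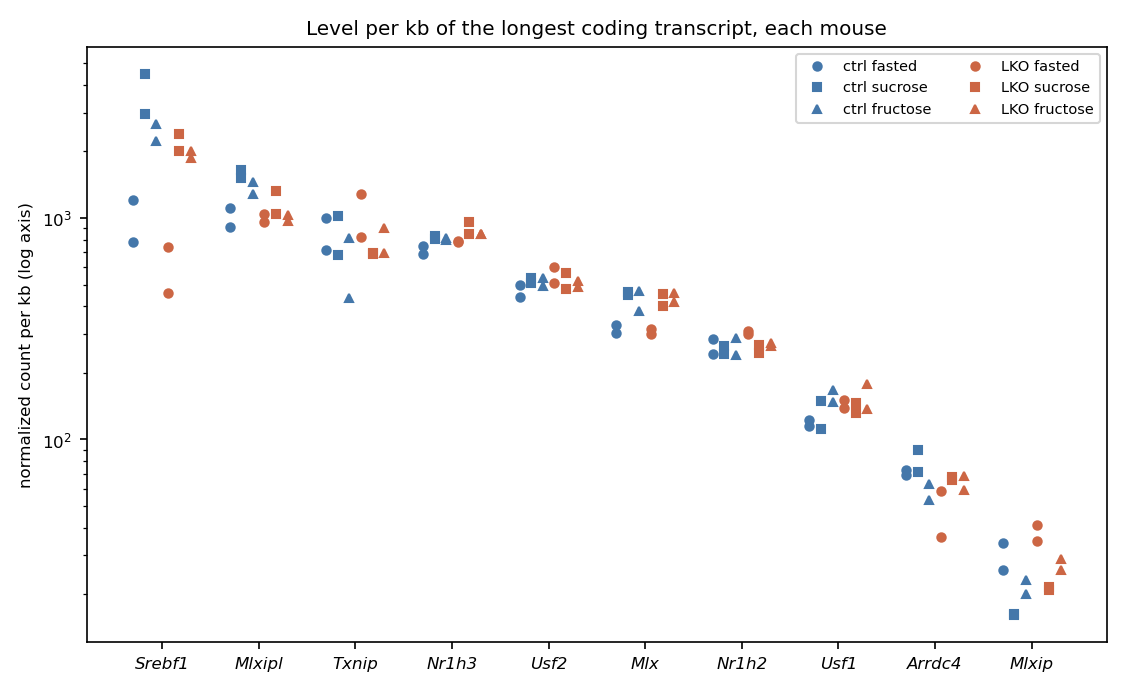
Normalized count per kb of the longest coding transcript (vertical log axis) for each of the 10 genes, with 1 point per mouse; colour gives the genotype and marker shape the diet. Mlxip lies at 16.0 to 41.2 and Srebf1 at 460.1 to 4475 per kb.

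Refeeding with sugar raised Srebf1 in both genotypes, and by more than any other of the 10 genes. The gene lies on chromosome 11 (60199089 to 60222581, minus strand). Fasted control mice had 5172 and 3349 normalized counts, sucrose-fed ones 19239 and 12668, and fructose-fed ones 9605 and 11426. The libraries labelled MED13-LKO, in the same order of diets, had 3170.1 and 1978, then 8685 and 10314.5, then 8034 and 8629. Every one of the 8 fed libraries, at 8034 or more, was above every one of the 4 fasted libraries, at 5172 or less. The increase on the log2 scale was 1.91 (SE 0.27, limma adjusted p = 0.00274) with sucrose in control mice and 1.92 (SE 0.27, adjusted p = 0.00404) in mice labelled MED13-LKO, a 3.75-fold and a 3.78-fold rise. With fructose it was 1.33 (adjusted p = 0.0216) and 1.73 (adjusted p = 0.00716). Both sucrose calls held without any single mouse. The fructose call in control mice was lost without fasted mouse 2 (adjusted p = 0.152), fructose mouse 1 (0.0598) or fructose mouse 2 (0.0578), or when only these groups were fitted (0.119). That in mice labelled MED13-LKO was lost without fasted mouse 2 (0.0538) or fructose mouse 2 (0.0735).

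The RNA of the ChREBP gene, summed over its alpha and beta forms, responded less. The normalized counts of Mlxipl, on chromosome 5 (135089890 to 135138382, plus strand), were 4043 and 3301 in fasted control mice. They were 5968 and 5524 with sucrose and 4668 and 5297 with fructose. The libraries labelled MED13-LKO had 3799 and 3464 after fasting, 3784 and 4789 after sucrose, and 3731 and 3504 after fructose. In control mice both sugars gave values above both fasted mice, whereas the groups labelled MED13-LKO overlapped. The control mice rose with sucrose by 0.65 (SE 0.13, adjusted p = 0.0158), a 1.57-fold change. The change with fructose was 0.44 (adjusted p = 0.0806), and in mice labelled MED13-LKO it was 0.23 (95% confidence interval -0.06 to 0.52, adjusted p = 0.361) with sucrose and -0.005 (-0.30 to 0.29, adjusted p = 0.989) with fructose. The sucrose call in control mice was lost without fasted mouse 2 (0.123), sucrose mouse 1 (0.101) or sucrose mouse 2 (0.0511).

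The RNAs of the partner MLX and of the relative MONDOA moved in opposite directions after feeding. MLX is the obligate DNA-binding partner of both ChREBP and MONDOA. Mlx (chromosome 11, 101087277 to 101092207, plus strand) was at 649 and 594 in fasted control mice, 882 and 914 with sucrose and 923 and 746 with fructose. The other genotype had 621 and 590.5, then 791 and 893, then 819 and 904. All 8 fed libraries, at 746 to 923, lay above the 4 fasted ones. Mlx rose by 0.53 (SE 0.12, adjusted p = 0.0227) with sucrose in control mice, and by 0.47 (adjusted p = 0.0455) with sucrose and 0.51 (adjusted p = 0.0334) with fructose in mice labelled MED13-LKO. The remaining change, fructose in control mice, was 0.42 (adjusted p = 0.0691), and it passed the threshold without fructose mouse 2 (0.0211). Each of the 3 calls was lost when any 1 mouse of the groups compared was left out, with adjusted p of 0.0624 to 0.147, 0.0962 to 0.271 and 0.0557 to 0.238. The call with sucrose in mice labelled MED13-LKO was lost too when a mouse of any other group was left out (0.0591 to 0.0633) or genes of low level were kept (0.0527). For Mlx 17.1% of the 31-base subsequences recur in another gene, most often Psmc3ip, which was at 6 to 23 normalized counts. The paper, by quantitative PCR, treated Mlx as a gene that does not respond to nutrients. The forward primer listed for that assay matched 0 of the 7 annotated Mlx transcripts, and the reverse primer matched 6. The reason for the unlike results was not tested.

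Mlxip fell with sucrose in both genotypes. This gene (chromosome 5, 123394798 to 123457932, plus strand) was at 249.8 and 188 in fasted control mice, 117 and 119 with sucrose, and 146 and 170.03 with fructose. The libraries labelled MED13-LKO gave 301 and 254, 158 and 153, and 188 and 209.7. Within each genotype the fed mice were all below the fasted mice, with the sucrose-fed mice lowest. With sucrose Mlxip fell by 0.87 on the log2 scale (SE 0.17, adjusted p = 0.0131) in control mice and by 0.83 (SE 0.17, adjusted p = 0.0208) in mice labelled MED13-LKO. The differences with fructose were -0.46 (adjusted p = 0.143) and -0.47 (adjusted p = 0.125). The control call was lost without fasted mouse 1 (0.0867), sucrose mouse 1 (0.0768) or sucrose mouse 2 (0.0573) and when only these groups were fitted (0.0679), and the other was lost without any 1 of its 4 mice (0.0616 to 0.138).

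**Figure D2:**
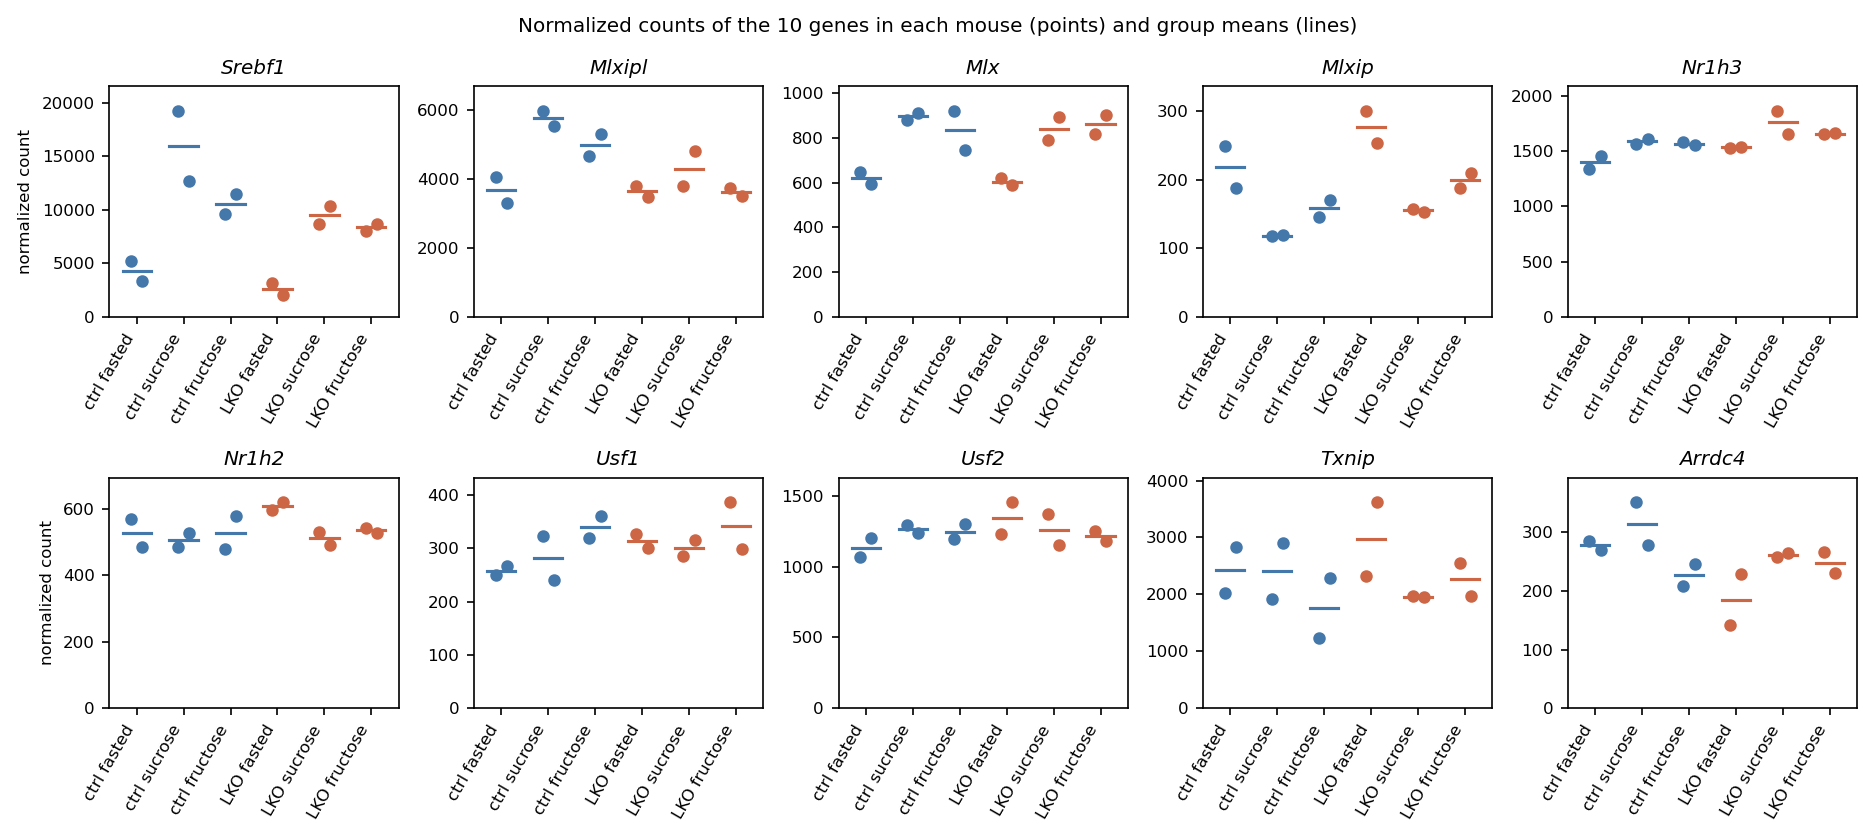
Normalized counts (vertical axes from 0) of the 10 genes in each of the 12 mice, grouped by genotype (ctrl, control; LKO, labelled MED13-LKO) and diet; points are mice and lines are group means. The 8 fed mice lie above the 4 fasted mice for Srebf1 and Mlx, and below the fasted mice of their own genotype for Mlxip.

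The LXR genes changed little with diet. Nr1h3 (chromosome 2, 91184061 to 91202834, minus strand), the form abundant in liver, was at 1344 and 1460.2 in fasted control mice, 1565 and 1616 with sucrose, and 1586 and 1556 with fructose. The libraries labelled MED13-LKO gave 1532 and 1541, then 1869 and 1661, then 1656 and 1663. The fed mice were above the fasted mice of their genotype, but the differences were small: 0.18 (95% confidence interval 0.004 to 0.36, adjusted p = 0.195) and 0.20 (0.02 to 0.38, adjusted p = 0.193) with sucrose, and 0.16 (adjusted p = 0.253) and 0.11 (adjusted p = 0.452) with fructose. Nr1h2 (chromosome 7, 44549616 to 44553951, minus strand), the widely expressed form, ranged from 479.8 to 619.7 over the 12 libraries. Its diet differences were between -0.25 and 0.001 and did not pass the test, with the lowest adjusted p of 0.265 for sucrose in mice labelled MED13-LKO.

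The USF genes did not pass the test in any comparison. Usf1 (chromosome 1, 171411313 to 171419142, plus strand) ranged from 240.3 to 387 normalized counts. Its largest diet difference was 0.40 (95% confidence interval 0.02 to 0.77, adjusted p = 0.198), with fructose in control mice, whose 319.5 and 361 were above the fasted 250.1 and 266. Usf2 (chromosome 7, 30945248 to 30956803, minus strand) ranged from 1069 to 1455, and its diet differences lay between -0.14 and 0.16. Of the 31-base subsequences of Usf1 23.5% occur elsewhere in the annotation, mostly in Gm12345, and of those of Usf2 14.6%, mostly in Usf2-ps1, and neither copy was analysed here.

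Txnip and Arrdc4, which glucose is known to induce through ChREBP and MONDOA, did not rise detectably after sugar feeding. Txnip (chromosome 3, 96557957 to 96561883, plus strand) was at 2032 and 2839 in fasted control mice, 1926 and 2897 with sucrose and 1225 and 2289 with fructose. Fasted mice labelled MED13-LKO had 2328 and 3619.7, sucrose-fed ones 1974 and 1951, and fructose-fed ones 2557 and 1976. The groups overlapped in control mice, and the 2 mice of a group differed widely among fructose-fed control mice and among fasted mice labelled MED13-LKO. Its differences from fasted were -0.02 (95% confidence interval -0.73 to 0.68, adjusted p = 0.971) and -0.56 (-1.27 to 0.14, adjusted p = 0.355) with sucrose, and -0.52 (-1.23 to 0.19, adjusted p = 0.359) and -0.37 (-1.08 to 0.34, adjusted p = 0.535) with fructose, in control mice and mice labelled MED13-LKO in turn. Of its 31-base subsequences 17.4% recur in other genes, mostly in Gm15441, annotated as antisense to it, and whether counting used strand is not given in the sources used here.

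Arrdc4 (chromosome 7, 68736995 to 68749241, minus strand) had opposite signs of its fructose difference in the 2 genotypes. Control mice had 286 and 271 normalized counts after fasting, 351 and 278 after sucrose, and 209 and 246 after fructose. The fasted, sucrose-fed and fructose-fed libraries labelled MED13-LKO had 142 and 228, then 257 and 264, then 267 and 230.1. Both fructose-fed control mice were below their fasted mice, and both fructose-fed mice labelled MED13-LKO were above theirs. The difference was -0.29 (adjusted p = 0.445) in control mice and 0.46 (adjusted p = 0.227) in mice labelled MED13-LKO, and the test of the difference between them gave 0.75 (95% confidence interval 0.09 to 1.42, adjusted p = 0.488). With sucrose the differences were 0.17 (adjusted p = 0.670) and 0.53 (adjusted p = 0.183).

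Across the 10 genes, 4 passed the test with sucrose in control mice (3 higher, 1 lower) where 8.57% of all 12366 genes did, and 1 with fructose where 5.6% did. Among mice labelled MED13-LKO 3 passed after sucrose (2 higher, 1 lower), against 5.71% of all genes, and 2 after fructose, both higher, against 6.53%. The median log2 difference of the 10 genes with sucrose in control mice was 0.16, beside -0.02 for all genes tested. None of the 10 differed between the sugars in limma, where 0.0404% of all genes did in either genotype, and 1 and 0 of them had an unadjusted p under 0.05 in control mice and mice labelled MED13-LKO (1061 and 951 of all genes). The 1 was Mlxip, 0.41 higher after fructose than after sucrose in control mice (adjusted p = 0.527). For Srebf1 the same difference was -0.58 (95% confidence interval -1.17 to 0.02, adjusted p = 0.601). Comparisons of both sugars with the fasted state share the same 2 fasted mice, so their values are not independent.

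**Figure D3:**
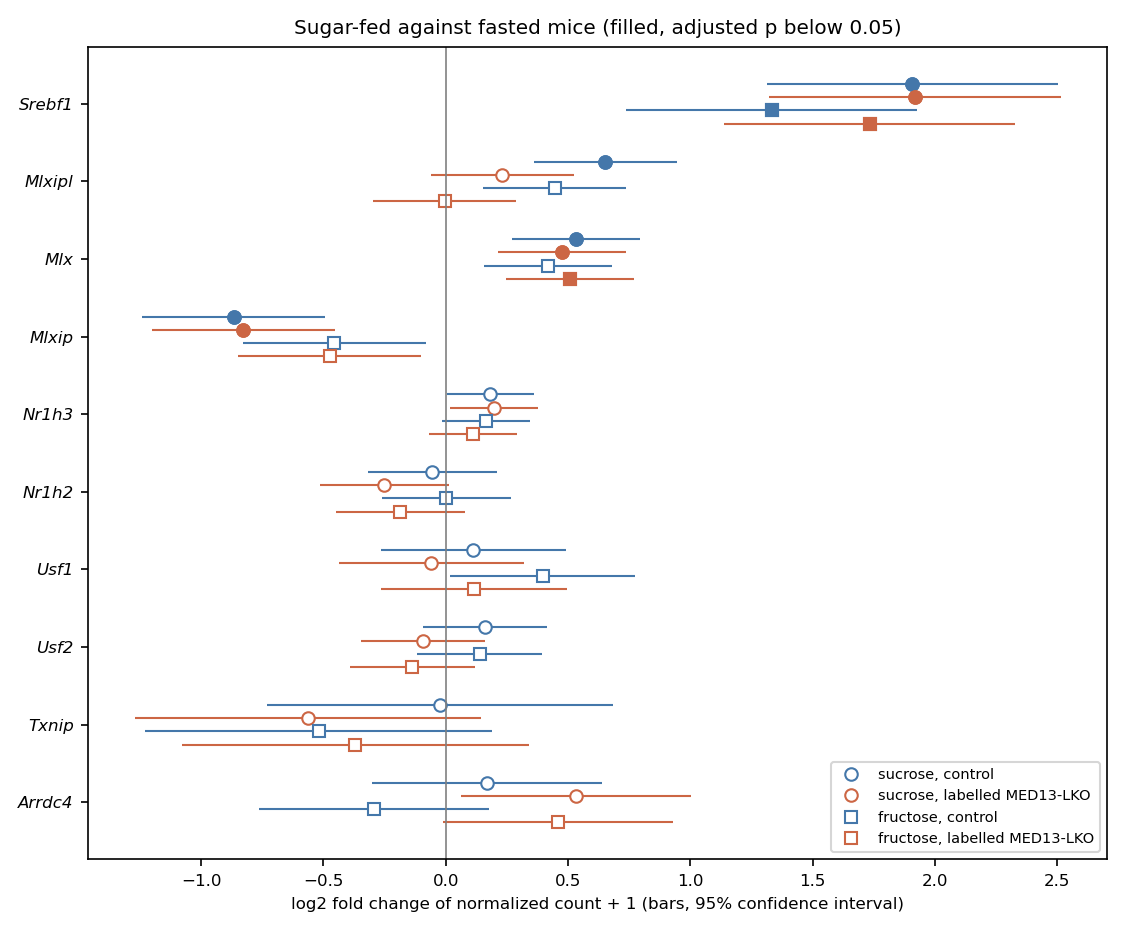
Log2 fold changes of normalized count + 1 from the fasted state (horizontal axis) for the 10 genes, with 95% confidence intervals as bars; circles are sucrose, squares are fructose, colour gives the genotype, and filled markers passed an adjusted p of 0.05. Srebf1 is filled 4 times, at 1.33 to 1.92, and Mlxip lies below 0 in all 4 comparisons.

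Between the genotypes, Srebf1 and Mlxipl were lower and Mlxip was higher in the libraries labelled MED13-LKO when the 3 diets were averaged. Srebf1 was lower by 0.73 (fasted), 0.72 (sucrose) and 0.33 (fructose) on the log2 scale, with adjusted p of 0.118, 0.153 and 0.503. Averaged, the difference was -0.60 (SE 0.15, adjusted p = 0.0188), and it was lost without sucrose mouse 1 of the libraries labelled MED13-LKO (0.0551). Mlxipl did not differ detectably in the fasted state (-0.01, 95% confidence interval -0.30 to 0.28, adjusted p = 0.975). With sucrose and with fructose it was lower by 0.43 (adjusted p = 0.0888) and 0.46 (adjusted p = 0.0641), and every library labelled MED13-LKO was below every control library with fructose and with sucrose. The averaged difference of Mlxipl was -0.30 (SE 0.08, adjusted p = 0.0167), and it held without any single mouse. The fructose difference passed the threshold when sucrose mouse 1 or 2 of the libraries labelled MED13-LKO was left out (0.0499 and 0.0497).

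Mlxip differed the other way, by 0.35, 0.39 and 0.33 in the 3 diets (adjusted p = 0.223, 0.216 and 0.274), and by 0.36 on average (SE 0.10, adjusted p = 0.0228). Within each diet both libraries labelled MED13-LKO were above both control libraries. The averaged call was lost without control fasted mouse 2, control fructose mouse 1, or fasted mouse 1, sucrose mouse 1 or fructose mouse 2 of the libraries labelled MED13-LKO (0.0515 to 0.0638). Mlx, the partner of both proteins, differed by -0.03 on average (95% confidence interval -0.18 to 0.13, adjusted p = 0.818).

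The other 6 genes did not pass the test between genotypes. Nr1h3 was higher in the libraries labelled MED13-LKO by 0.12 on average (adjusted p = 0.0870), and this passed the threshold after rescaling to equal 75th percentiles (0.14, adjusted p = 0.0438). Arrdc4 was lower in the fasted state by 0.62 (95% confidence interval -1.09 to -0.15, adjusted p = 0.0953), with 142 and 228 against 286 and 271. Without fasted mouse 2 of the libraries labelled MED13-LKO this difference was -0.96 (adjusted p = 0.0332), and the average over the diets was -0.37 (adjusted p = 0.0290) in place of -0.25 (adjusted p = 0.162). Averaged differences of Nr1h2, Usf1, Usf2 and Txnip were between 0.07 and 0.14, with adjusted p of 0.376 to 0.613.

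Of the 10 genes, 0 passed limma's test within any single diet, although 8.98% of all genes did in the fasted state, 6.03% with sucrose and 7.69% with fructose, and 2, 3 and 1 of the 10 had an unadjusted p under 0.05. For the average over the diets 3 of the 10 passed (1 higher, 2 lower) where 25.3% of all genes did, so the share of these genes was close to that of the table. The summed hepatocyte markers were lower in the same libraries, with no overlap, and so was the sum of all normalized counts. The Kupffer cell markers ranged higher, with overlap. The part of these levels in the genotype differences was not tested.

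**Figure D4:**
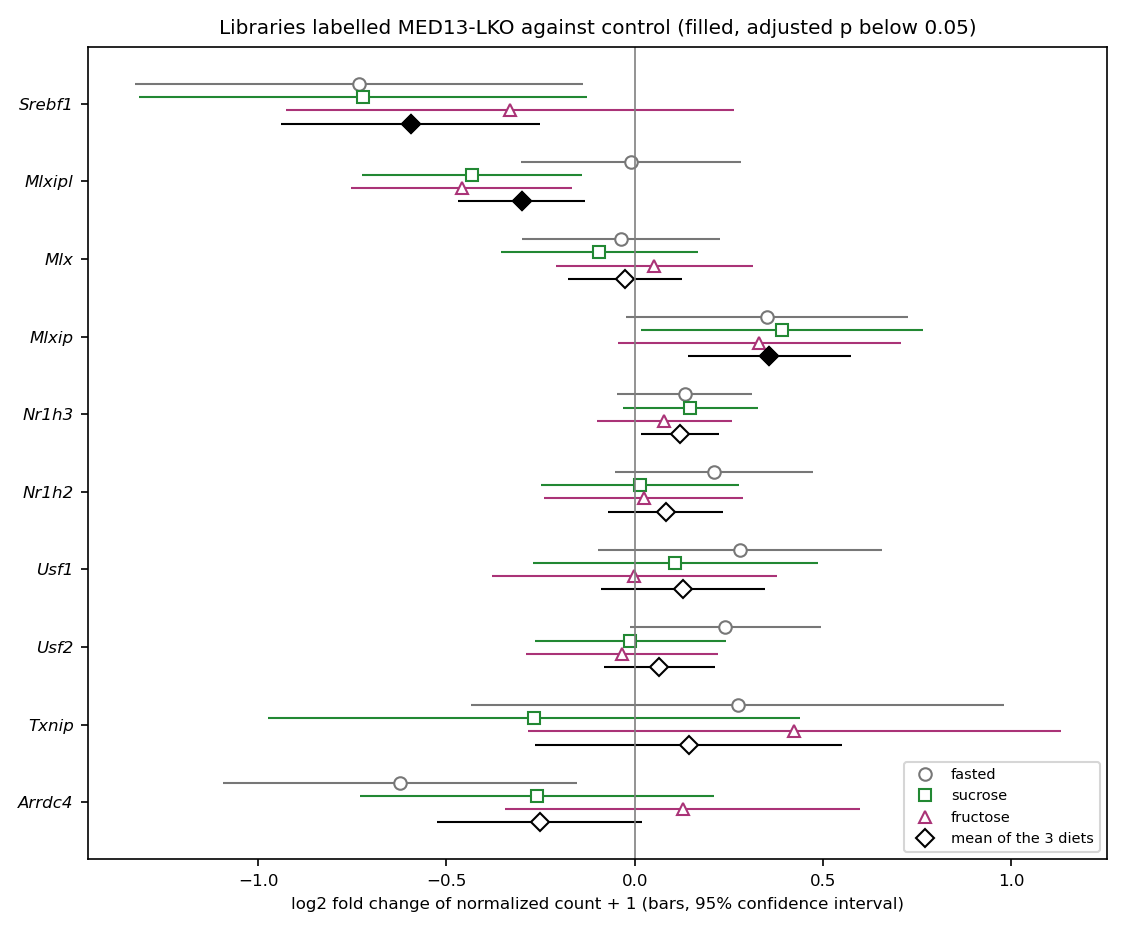
Log2 fold changes of libraries labelled MED13-LKO against control libraries (horizontal axis) for the 10 genes in each diet and averaged over the 3 diets; bars are 95% confidence intervals and filled markers passed an adjusted p of 0.05. Filled markers stand only at the averages of Srebf1 (-0.60), Mlxipl (-0.30) and Mlxip (0.36).

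Whether the feeding response differed between genotypes was tested directly. For none of the 10 genes did the difference in response pass limma's test, where 0.146% of all genes did with sucrose and 0.0243% with fructose, and 1 and 2 of the 10 had an unadjusted p under 0.05 (1055 and 1170 of all genes). Those were Mlxipl with both sugars and Arrdc4 with fructose. The response of Mlxipl was lower in mice labelled MED13-LKO by 0.42 with sucrose (95% confidence interval -0.84 to -0.01, adjusted p = 0.573) and by 0.45 with fructose (-0.86 to -0.04, adjusted p = 0.502). For Srebf1 the differences in response were 0.01 (-0.83 to 0.85, adjusted p = 0.996) and 0.40 (-0.44 to 1.244, adjusted p = 0.780).

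Genes related to SREBP1 or read by these factors were then counted by list. The background for each count is the share of all genes that passed: 8.57% (sucrose) and 5.6% (fructose) in control mice, 5.71% and 6.53% in the other genotype, and between genotypes 8.98% (fasted), 6.03% (sucrose), 7.69% (fructose) and 25.3% (average over the diets). SREBP1 is held in the membrane by INSIG proteins and carried by SCAP. Of 7 genes listed for SREBP escort and processing, with Srebf2 and Fbxw7 among them, 1 rose and 1 fell with sucrose in control mice. Insig1, itself a sterol and insulin target, rose by 1.201 (adjusted p = 0.0261) and Insig2, the form kept in fasting, fell by 0.59. With fructose none passed in control mice, and in mice labelled MED13-LKO Insig2 fell with sucrose by 0.67, and with fructose Insig1 rose by 1.14 while Insig2 fell by 0.83. Between genotypes Insig1 was lower by 1.43 with sucrose (adjusted p = 0.0159) in the libraries labelled MED13-LKO.

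Of 13 SREBP1 target enzymes, 9 rose and none fell with sucrose in control mice, with a list median of 2.31 beside -0.02 for all genes. The largest were Pnpla3, a lipid droplet protein (4.73, from 6.78 and 3.61 normalized counts to 312 and 79.6), Fasn, fatty acid synthase (4.48, from 1290.1 and 1085 to 35838 and 19511), Elovl6, a fatty acid elongase (4.06) and Acly, ATP citrate lyase (2.94). With fructose 6 rose in control mice (median 1.48), led by Fasn (2.93), Elovl6 (2.64) and Mid1ip1 (2.12). In mice labelled MED13-LKO 6 rose with sucrose (median 1.65) and 5 with fructose (median 1.18), with Fasn at 3.35 and 3.19. When 1 mouse was left out these counts were 8 to 10, 2 to 7, 3 to 7 and 2 to 6, the lowest fructose count in control mice coming without fasted mouse 2 and the lowest counts in mice labelled MED13-LKO without their fasted mouse 2.

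Against control mice, 6 of these 13 enzymes were lower and none higher with sucrose in the libraries labelled MED13-LKO (median -1.59). They were led by Scd1, stearoyl-CoA desaturase (-2.28, 13932 and 34362 against 167333 and 67058), Acly (-1.85), Elovl6 (-1.74) and Me1, malic enzyme (-1.66). Without control sucrose mouse 1 only 1 of the 6 passed, and over all mice left out in turn the count was 1 to 7. With fructose 2 were lower, among them Me1 (-0.73), and none without control fructose mouse 1. In the fasted state 1 was higher, Acacb (1.68), and none without control fasted mouse 2. Averaged over the diets 8 were lower (7 to 9 with a mouse left out), beside the 25.3% of all genes, with Scd1 at -1.68.

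Of 18 ChREBP targets other than Txnip and Arrdc4, 7 of which are also in the SREBP1 list, 14 rose and 1 fell with sucrose in control mice (median 1.95). Beside Pnpla3, Fasn and Elovl6, the largest was Fgf21, a liver hormone (3.65, from 1.13 and 4.82 normalized counts to 25.1 and 73.5). G6pc, the catalytic subunit of glucose-6-phosphatase, fell by 1.53. With fructose 8 rose in control mice, and 10 rose with sucrose and 6 with fructose in mice labelled MED13-LKO. Among these, Pklr, liver pyruvate kinase, rose by 1.60, 2.17 and 1.22. The counts with a mouse left out were 11 to 14 with sucrose and 2 to 10 with fructose in control mice, and 5 to 11 and 1 to 8 in mice labelled MED13-LKO, the lowest of the latter 3 without fasted mouse 2 of the genotype.

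Between genotypes 7 of the 18 were lower with sucrose in the libraries labelled MED13-LKO and none higher (median -1.07), among them Acly, Elovl6, Me1 and Fasn, with 1 to 8 when a mouse was left out and 1 without control sucrose mouse 1. In the fasted state Slc2a2, the GLUT2 sugar transporter, was lower by 1.37 (5147 and 2868 against 9451 and 10375), Tkfc, triokinase, was lower by 0.93, and Fgf21 was higher by 3.60 (50.7 and 34.4 against 1.13 and 4.82). The call of Fgf21 was lost without control fasted mouse 1. With fructose 3 were lower (Tkfc -1.30, Slc2a2 -1.09, Me1 -0.73), and none without fructose mouse 1 of the libraries labelled MED13-LKO. Averaged over the diets 10 were lower and 2 higher, where 25.3% of all genes passed (1634 lower and 1493 higher). G6pc had higher counts in the fed libraries labelled MED13-LKO, at 5895 and 6498 against 3077 and 3178 with sucrose. This sucrose difference did not pass the test. With fructose G6pc was at 8529 and 9317 against 3665 and 7030, and in fasted mice at 5887 and 9423 against 7865 and 10424. Its difference in response between genotypes did not pass in limma, at 1.27 (adjusted p = 0.419) with sucrose and 1.09 (adjusted p = 0.456) with fructose. By quantitative PCR the paper reported G6pc to be lower in MED13-LKO than in control liver, after fasting and with fructose. The fructose counts here go the other way, and the reason was not tested.

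**Figure D5:**
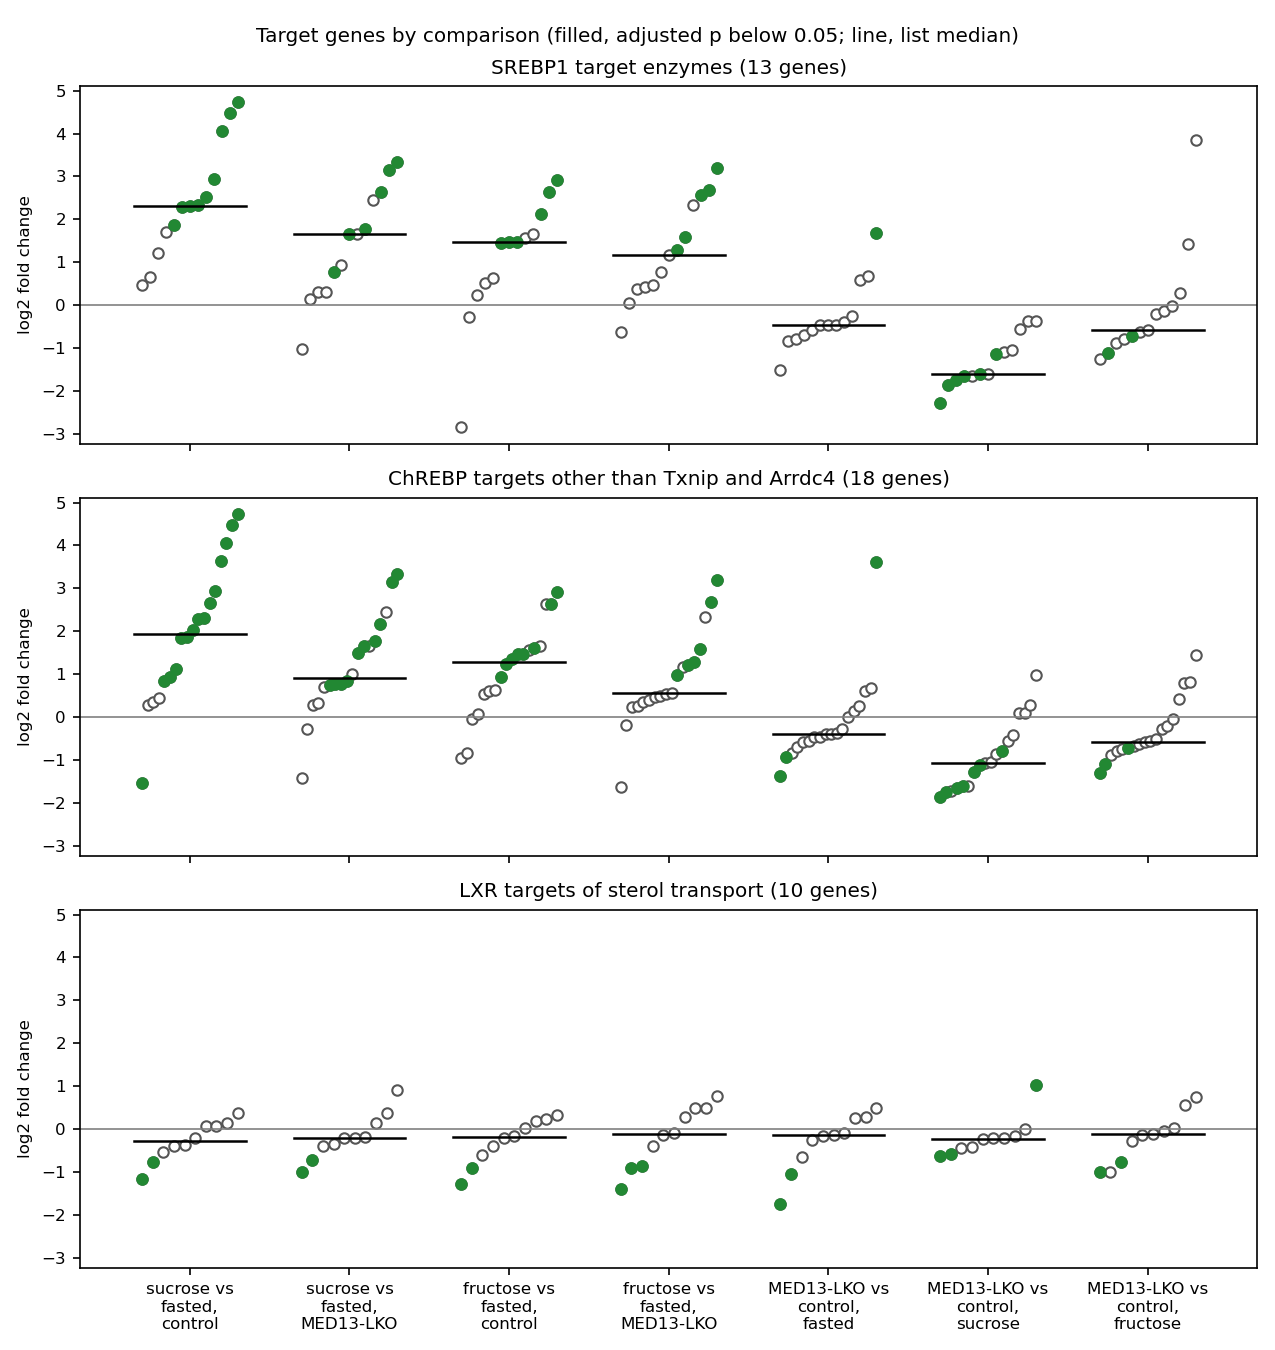
Log2 fold changes (vertical axes) of the genes of 3 target lists in 7 comparisons, each point 1 gene, sorted within a comparison; filled points passed an adjusted p of 0.05 and black lines are list medians. The medians of the SREBP1 and ChREBP lists lie above 0 after feeding (2.31 and 1.95 with sucrose in control mice) and below 0 between genotypes, and those of the LXR list lie between -0.29 and -0.11.

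Among 10 LXR targets in sterol transport, 2 fell with sucrose in control mice, Abcg8 by 1.16 (2466 and 2450 to 1002 and 1204) and Abcg5 by 0.76, which together form the sterol exporter into bile. Both fell with fructose as well (-1.28 and -0.90), and in mice labelled MED13-LKO 2 fell with sucrose and 3 with fructose, Abcg8 among them (-0.72 and -1.40). In the fasted state Cyp7a1, the rate-limiting enzyme of bile acid synthesis, was lower by 1.75 (3638 and 2489 against 10085 and 10134) and Abcg5 by 1.05 in the libraries labelled MED13-LKO. With sucrose Lpl, lipoprotein lipase, was higher by 1.02 while Abcg5 and Lpcat3 were lower, and with fructose Abcg5 and Abcg8 were lower. Of 10 LXR partners and coregulators, 1 fell with sucrose in control mice (Ncoa2, -0.60), a share near the 8.57% of all genes, and with fructose Nr0b2, a repressor, fell by 1.53. In mice labelled MED13-LKO 1 rose and 2 fell with sucrose, and 2 rose and 2 fell with fructose. Averaged over the diets Rxrg was higher by 0.96, Ncoa2 higher by 0.34 and Rxra, the abundant RXR of liver, lower by 0.33 in the libraries labelled MED13-LKO, and these 3 of 10 are a share near the 25.3% of all genes.

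Among 8 partners of the MAX and MLX network that were tested, Myc rose by 2.61 with sucrose in control mice (67.7 and 33.1 to 323 and 269) and Mxd1, a repressor, fell by 1.48. Mxd1 also fell with fructose, by 0.97 in control mice and 0.93 in mice labelled MED13-LKO, and no gene of this list passed with sucrose in mice labelled MED13-LKO. Averaged over the diets Myc (-1.18), Mycl (-1.10) and Max (-0.27) were lower in the libraries labelled MED13-LKO, 3 of 8 genes where 25.3% of all genes passed. Of 9 arrestin and thioredoxin system genes, Arrdc3 rose (2.55 with sucrose, 1.88 with fructose) and Arrdc2 fell (-1.79 and -1.72) in control mice. Arrdc3 went from 808 and 638 normalized counts to 4063 and 4353 with sucrose. In the other genotype Arrdc2 alone passed (-1.67 and -1.60), with Arrdc3 at 1.21 (adjusted p = 0.0612) and 1.16 (adjusted p = 0.0643), and the difference in response between genotypes did not pass for either gene. Between genotypes Txn2, mitochondrial thioredoxin, differed by -0.43 in fasted and -0.33 in fructose-fed mice.

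Of 11 promoter partners of SREBP1 and USF, Bhlhe40, a repressor of the circadian system, rose with both sugars in both genotypes (1.11 to 1.34). Crebbp and Ep300, a pair of acetyltransferases, fell by 0.88 and 0.45 with sucrose in mice labelled MED13-LKO. Between genotypes Bhlhe41 was higher where the label was MED13-LKO, by 1.87 (fasted) and 2.07 (sucrose), and Nfyb, a subunit of the NF-Y factor that works with SREBP1, differed by -0.45 (sucrose) and -0.69 (fructose). Of 7 genes of the Mediator kinase module none passed between genotypes in a single diet. Averaged over the diets Med12l alone passed, higher by 2.48, at a low level. It was at 2.93 to 24.9 normalized counts in control libraries and at 32.8 to 94.1 in libraries labelled MED13-LKO. With feeding Cdk8 fell in control mice by 0.49 with sucrose and 0.51 with fructose. Among mice labelled MED13-LKO Cdk8 fell by 0.41 with sucrose (its fructose difference was -0.28, adjusted p = 0.113), and Med13l fell by 0.77 and 0.76. No gene of these 9 lists passed between the sugars or for a difference in response between genotypes.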

How the data were processed

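Liver RNA-seq libraries of 12 mice were used, with groups and replicate numbers taken from the sample titles. The table deposited by the authors holds 1 signal value per gene and mouse, a normalized count. The authors' processing notes name Trim Galore 0.6.5 for trimming, kallisto 0.46.0 for transcript counts, DESeq2 1.24.0 for normalization and the mm10 build. Each gene has its own scaling factor in each library, so whole reads were not recovered and no count model was fitted. Symbols were found for 16212 of the 16346 identifiers.

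Normalized counts were taken as log2(value + 1). A single linear model of the 6 group means was fitted in limma 3.58.1 (R 4.3.3), with a variance trend and no block, to the 12366 genes whose mean was 10 or more. P-values were adjusted by the Benjamini and Hochberg method over these genes, and an adjusted p under 0.05 is called passing. The fit was tested on simulated data. Each p-value rests on the spread between the 2 mice of a group, pooled over the 6 groups and drawn towards the variance trend. The precision comes from this spread, since read depth per library was not analysed here.

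The 10 genes and the lists of related genes were chosen with earlier results of these data known. Of each list, at most the 4 genes with the largest change among those that passed were to be named for a comparison. In addition a few genes were named for their values per mouse or their recurrence after those values were seen. Some list members are left unnamed and without values. Sequence sharing was the percent of 31-base subsequences found in another gene of GENCODE M21. Promoter windows came from RefSeq on GRCm38.p6, with none for Usf2, and primers from the study's supplement. Figures were drawn with matplotlib. Alternatives were pseudocounts of 0.1 and 10, no filter, equal 75th percentiles, a replicate block, models of the compared groups alone, and each mouse left out in turn. The last was also applied to the lists, a choice made after seeing the data.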

Additional observations from a re-analysis of the deposited data

How the results depend on the processing

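Of the 13 passing results of single genes, the 2 sucrose responses of Srebf1 and the averaged genotype difference of Mlxipl passed under every alternative run. Over the alternatives of the results that passed at least once, 268 values stayed on their side of the threshold, 45 lost it, 6 gained it and 0 changed sign. Of 102 results that passed nowhere, 40 changed sign somewhere. The count of the 10 genes that passed was 1 to 4 with sucrose and 0 to 1 with fructose in control mice when a mouse was left out. It was 1 to 3 with sucrose and 0 to 2 with fructose in mice labelled MED13-LKO, 0 to 1 between genotypes in fasted and in fructose-fed mice, and 1 to 4 for the average over the diets. With only the compared groups fitted, it was 0 with fructose in control mice and 1 with fructose in mice labelled MED13-LKO. With the replicate number as a block it was 1 in that last comparison, and 11 calls in all in place of 13. The deviations of mice numbered 1 correlated between groups at -0.142 to 0.0782 over 15 pairs of groups, so the numbers were not taken as pairing. These are the numbers of the sample titles; the deposited columns number the fed mice 2 and 3 and the fasted mice 1 and 2, so by the columns fed and fasted groups share 1 number. Equal 75th percentiles moved no value of the 10 genes by more than 0.0453.

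Of 61 counts above 0 in the other 7 lists, 37 reached 0 without some mouse. With 2 mice per group, a difference within one diet had to be large against the pooled spread to pass, and a p that misses the threshold does not show equal levels. Values are sums over a gene's transcripts, so beta and alpha forms of ChREBP, or SREBP1a and SREBP1c, were not separated.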

Other observations

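The genes whose pattern over the 12 libraries was most like that of 4 of the genes were listed as a description, by Pearson's r of log2(normalized count + 1) over 12356 other genes. The points share libraries, and the diets and genotypes set much of their spread. For Srebf1 they were Elovl6 (0.976), a fatty acid elongase, Tmie (0.976) and Heatr3 (0.968). For Mlxipl they included Foxq1 (0.943), a forkhead factor, and Tkfc (0.897), triokinase. For Txnip they were Cyp4a14 (0.891), a fatty acid hydroxylase, Ppara (0.869), the receptor that drives fatty acid oxidation in fasting, and Slc4a4 (0.866), a bicarbonate transporter. For Arrdc4 they were Pop1 (0.869), Mblac2 (0.856) and Tmem253 (0.847).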
